A study of Homo sapiens with 6 samples.

Results

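The genes described here are 40 chaperone and heat shock genes, mostly of the cytosol and including the mitochondrial HSPA9, HSPD1 and HSPE1 and the heat shock factors HSF1 and HSF2. They were chosen by symbol and not by a cut on their values, but with earlier results of these data known. The deposited tables together list 27807 genes, each in at least 1 of them. C4-2B cells, a human prostate cancer line that descends from LNCaP cells and forms bone metastases, were treated for 48 h in 3 separate experiments, each with 1 treated and 1 vehicle library. The treatments were SR2211 at 5 µM, XY011 at 5 µM and enzalutamide (ENZ in the labels) at 20 µM, and each vehicle is the one of its own experiment. Groups follow the sample titles, while the extraction text of the ENZ libraries names SR2211. SR2211 is a nuclear receptor inverse agonist, enzalutamide is a drug used against prostate cancer, and XY011 is known here by its code name only. All 6 cultures, vehicles included, were kept in 9% stripped and 1% regular serum, a medium low in hormone that the labels give as a model of castration resistance. The model is limited to 1 cell line, and in bulk RNA fewer cells of a type and less RNA per cell cannot be told apart.

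Chaperones bind proteins that are not fully folded. HSP70 proteins, helped by J-domain proteins that deliver clients and by nucleotide exchange factors that release them, pass clients such as steroid receptors to HSP90, and co-chaperones of HSP90 set the order of the steps that leave the receptor able to bind hormone. TRiC, also called CCT, is a ring-shaped complex that folds actin, tubulin and other proteins. HSF1 switches on many of these genes under heat or proteotoxic stress through heat shock elements, which are inverted repeats of the unit GAA.

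The sequences of the promoters with the most such units are shown because they carry the elements by which these genes are known as a group. A window from 250 bases before to 50 bases after the annotated start was read from RefSeq, build GRCh38.p14, for the 35 of the 40 genes with an entry. Capitals mark GAA and TTC units that alternate with 2 bases between them. A gene with several annotated starts is shown at the start with the most units. The other windows of HSP90AB1, HSP90AA1 and HSPD1 held 0. The windows are CHORDC1 (chr11:90223000-90223299, minus strand), HSP90AB1 (chr6:44247693-44247992, plus strand), HSPA8 (chr11:123062087-123062386, minus strand), DNAJA1 (chr9:33025023-33025322, plus strand) and HSP90AA1 (chr14:102086995-102087294, minus strand). The divergent neighbours HSPD1 (chr2:197499791-197500090, minus strand) and HSPE1 (chr2:197500129-197500428, plus strand) are shown because they encode the 2 parts of 1 folding machine. All 7 are given 5′ to 3′ on the strand of their gene.
CHORDC1: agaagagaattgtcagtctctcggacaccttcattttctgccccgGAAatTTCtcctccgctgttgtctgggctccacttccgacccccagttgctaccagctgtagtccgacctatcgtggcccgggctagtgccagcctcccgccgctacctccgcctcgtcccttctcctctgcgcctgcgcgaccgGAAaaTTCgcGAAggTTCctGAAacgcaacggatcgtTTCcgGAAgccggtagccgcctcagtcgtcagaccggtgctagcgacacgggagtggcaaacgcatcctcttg
HSP90AB1: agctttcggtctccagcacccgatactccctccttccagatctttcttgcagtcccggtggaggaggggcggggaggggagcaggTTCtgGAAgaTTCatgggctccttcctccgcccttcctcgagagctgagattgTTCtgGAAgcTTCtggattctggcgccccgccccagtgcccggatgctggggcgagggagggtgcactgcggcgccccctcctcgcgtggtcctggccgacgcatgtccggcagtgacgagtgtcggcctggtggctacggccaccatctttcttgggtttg
HSPA8: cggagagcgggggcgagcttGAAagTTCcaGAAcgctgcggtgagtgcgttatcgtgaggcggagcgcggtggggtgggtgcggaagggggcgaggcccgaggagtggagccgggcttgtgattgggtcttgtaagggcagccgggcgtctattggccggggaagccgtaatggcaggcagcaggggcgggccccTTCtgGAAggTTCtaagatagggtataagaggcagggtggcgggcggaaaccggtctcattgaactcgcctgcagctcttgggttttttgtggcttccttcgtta
DNAJA1: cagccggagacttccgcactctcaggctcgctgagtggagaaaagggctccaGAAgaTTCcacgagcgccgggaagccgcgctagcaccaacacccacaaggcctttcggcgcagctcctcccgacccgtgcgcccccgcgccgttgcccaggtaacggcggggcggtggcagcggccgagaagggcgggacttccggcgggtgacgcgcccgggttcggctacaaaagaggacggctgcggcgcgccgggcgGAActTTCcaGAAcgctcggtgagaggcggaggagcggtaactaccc
HSP90AA1: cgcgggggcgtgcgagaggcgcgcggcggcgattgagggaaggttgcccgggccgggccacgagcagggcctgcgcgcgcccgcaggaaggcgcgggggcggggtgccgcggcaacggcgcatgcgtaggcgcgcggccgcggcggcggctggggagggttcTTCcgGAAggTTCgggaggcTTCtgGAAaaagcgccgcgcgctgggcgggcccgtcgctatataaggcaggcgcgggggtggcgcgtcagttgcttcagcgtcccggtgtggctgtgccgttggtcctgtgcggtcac
HSPD1: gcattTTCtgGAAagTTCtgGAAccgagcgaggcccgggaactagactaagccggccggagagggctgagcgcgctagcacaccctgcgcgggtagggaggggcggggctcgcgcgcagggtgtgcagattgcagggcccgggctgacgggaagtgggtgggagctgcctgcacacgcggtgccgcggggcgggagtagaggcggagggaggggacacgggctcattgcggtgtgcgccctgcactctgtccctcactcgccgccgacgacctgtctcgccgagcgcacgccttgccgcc
HSPE1: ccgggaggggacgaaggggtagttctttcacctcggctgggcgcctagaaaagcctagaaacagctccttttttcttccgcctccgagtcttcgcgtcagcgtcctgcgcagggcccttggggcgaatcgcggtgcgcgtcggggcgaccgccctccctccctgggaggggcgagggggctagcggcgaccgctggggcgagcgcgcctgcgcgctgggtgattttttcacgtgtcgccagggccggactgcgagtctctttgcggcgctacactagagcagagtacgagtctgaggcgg

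The CHORDC1 window held 9 such units, 5 of them in 1 unbroken array that ended 38 bases before the start. HSP90AB1 and HSPA8 each held 2 arrays of 3 units, and in DNAJA1 an array of 3 units began 3 bases after the start. HSP90AA1 held 5 units like DNAJA1, in an array of 3 and a pair. HSPD1 held an array of 4 units, 245 to 228 bases before the HSPD1 start used for this window. The same bases, chr2:197500068-197500085, lie 311 to 294 bases before the start of HSPE1, outside the HSPE1 window, which held none.

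The 3 tables hold values per gene length, RPKM for the SR2211 experiment and FPKM for the other 2. A change is given as log2((treated + 1)/(vehicle + 1)), for genes at 1 or more in either library of the pair. A gene is called higher or lower where the size of its change reaches 1, which is 2-fold. Where 3 changes, medians or counts are given together, they are for SR2211, XY011 and ENZ in that order. With 1 library a group there was no replicate check and no test, so every value below compares libraries. Where the levels of treated libraries are set against all 3 vehicles, they are compared across tables as deposited, with no offset removed. The luminal prostate markers KLK3, KLK2, SPDEF, HOXB13, KRT8, KRT18, EPCAM and CDH1 were listed in all 6 libraries at 28.2 or more. Of the basal markers, TP63 was in no table and KRT5 only in the ENZ table. KRT14 was in all 3 tables, at 1.33, 3.02 and 3.39 in the vehicles, and was called lower with XY011, at -1.16. Summed over these 8 luminal markers, the level was 1011 with SR2211 against 2541 in its vehicle, 1222 with XY011 against 2426, and 2580 with ENZ against 4349.7. KLK3 and KLK2 made up most of this difference: the other 6 summed to 771 with SR2211 against 973, 728 with XY011 against 894.5, and 873 with ENZ against 998. Those 6 did not share a direction. SPDEF was called lower with all 3 compounds, at -1.83, -1.69 and -1.04. HOXB13 was called lower with SR2211 and XY011, with changes of -1.48, -1.55 and 0.33. CDH1 was called higher with SR2211 and XY011, with changes of 1.06, 1.30 and 0.08. KRT18 had changes of -0.69, -0.82 and -0.40, EPCAM of -0.27, -0.39 and -0.08, and KRT8 of 0.09, 0.07 and -0.19. Summed over 11 basal, stromal, endothelial and leukocyte markers, of which 5, 6 and 7 were listed in the SR2211, XY011 and ENZ tables, it was 12.4 against 10.4 with SR2211, 17.8 against 16.0 with XY011 and 55.7 against 42.2 with ENZ. Of these, COL1A1 was called higher with ENZ, at 34.8 against 14.1, while DCN stood at 4.34 against 8.94. The part of either marker group in the results was not tested. Reads could be recovered for the SR2211 pair alone, at about 8160000 mapped reads for SR2211 and 8200000 for its vehicle. The depth of the other 4 libraries is unknown.

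Most of the 40 genes had lower values in treated than in vehicle libraries. With SR2211, 11 of 39 tested genes were called lower and 2 higher, where 6.22% of all genes tested were called lower and 5.4% higher. With XY011, 14 of 39 were called lower and 2 higher, against 13.7% and 7.99% of all genes. With ENZ, 2 of 40 were called lower, a share of 5% beside the background of 4.99%, and 0 were called higher, against 3.73% of all genes. The median change over the chaperone genes was -0.64 with SR2211, -0.73 with XY011 and -0.34 with ENZ, and over all genes -0.07, -0.15 and -0.03. Values lay below the vehicle in 34 of 39, 32 of 39 and 37 of 40 genes, beside 54.4%, 57.6% and 52.4% of all genes. With ENZ the count of calls was therefore near the background, and most values lay below the vehicle by less than 2-fold. After each pair was centred on its own median, the medians of the chaperone genes were -0.57, -0.59 and -0.31. Of the 31 calls, 12 fell short of 2-fold under another scaling or a pseudocount of 5: BAG1, CHORDC1, FKBP4, HSPB8, HSPE1 and TCP1 with SR2211, CCT3, CCT6A, FKBP4 and HSPB8 with XY011, and both calls with ENZ, HSPH1 and HSF2.

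**Figure D1:**
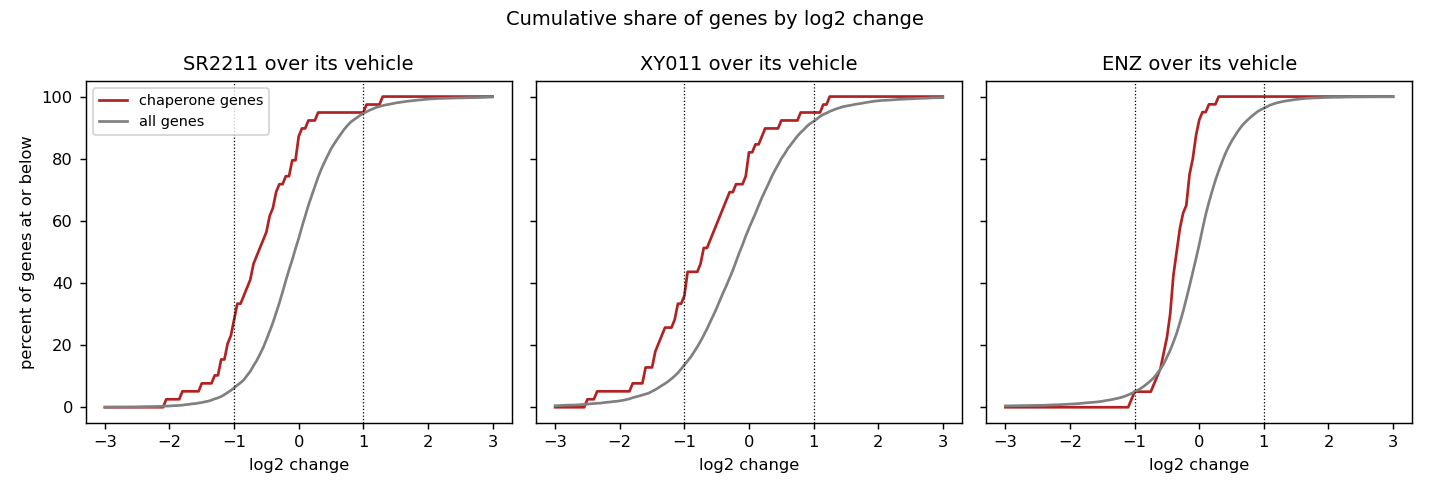
Cumulative share of genes (y axis) at or below a given log2 change (x axis), for the chaperone genes and for all genes tested in each experiment. The chaperone curve lies to the left of the curve of all genes over most of its range, with medians of -0.64, -0.73 and -0.34 with SR2211, XY011 and ENZ.

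HSP90 is the chaperone on which steroid receptors finish folding, and its 2 cytosolic forms, the stress-inducible HSP90AA1 and the constitutive HSP90AB1, had unequal values. HSP90AA1 (Entrez gene 3320) stood at 404 RPKM with SR2211 against 875 in its vehicle, at 242 FPKM with XY011 against 749, and at 378 FPKM with ENZ against 553. All 3 treated libraries lay below all 3 vehicles, and the log2 change was -1.11, -1.63 and -0.55. HSP90AB1 (3326) stood at 872 with SR2211 against 1079.7, at 965 with XY011 against 1238 and at 764 with ENZ against 839.7, with log2 changes of -0.31, -0.36 and -0.14. Within a library, where scale and depth cancel, the ratio of HSP90AA1 to HSP90AB1 was 0.463 with SR2211 against 0.810 in its vehicle, 0.251 with XY011 against 0.605, and 0.495 with ENZ against 0.658. It was lower in each treated library than in any vehicle.

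Among HSP70 and HSP110 genes the inducible members had the largest differences of all 40 genes with SR2211 and XY011, and the constitutive HSPA8 had almost none with SR2211. HSPA1B (3304), an HSP70 induced by heat, stood at 10.5 with SR2211 against 46.8 in its vehicle, at 10.3 with XY011 against 64.3, and at 16.6 with ENZ against 23.2. Treated and vehicle libraries did not overlap, and the log2 changes of -2.06 and -2.53 with SR2211 and XY011 were the lowest of all 40 genes; with ENZ it was -0.46. HSPA1B has a near-identical copy, HSPA1A (3303), so the split of reads between them is uncertain. HSPA1A was under 1 in both libraries of the SR2211 pair and so not tested, was not listed with XY011, and stood at 12.8 with ENZ against 17.0 in its vehicle. The sum of the pair was 10.5 with SR2211 against 46.8, and 29.4 with ENZ against 40.3.

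HSPH1 (10808) is an HSP110 protein, a nucleotide exchange factor that frees clients from HSP70. Of the 40 genes, HSPH1 alone was called lower with all 3 compounds. It stood at 50.03 with SR2211 against 179 in its vehicle, at 27.6 with XY011 against 148, and at 87.9 with ENZ against 186. The vehicles were close together, at 148 to 186, and every treated library lay below them; the changes were -1.82, -2.38 and -1.07, where quantile scaling gave -0.99 with ENZ. HSPA4 (3308), the constitutive relative of HSPH1, stood at 67.9 with SR2211 against 94.5, at 63.5 with XY011 against 87.4 and at 98.9 with ENZ against 112, changes of -0.47, -0.45 and -0.18. The ratio of HSPH1 to HSPA4 was 0.737 with SR2211 against 1.90 in its vehicle, 0.434 with XY011 against 1.69, and 0.888 with ENZ against 1.66: the inducible form was above the constitutive form in each vehicle and below it in each treated library. HSPA8 (3312) is the constitutive HSP70 that binds steroid receptors early, and was the most abundant of the 40 genes in all 6 libraries. It stood at 1821 with SR2211 against 1826, at 2667 with XY011 against 2321, and at 1057 with ENZ against 1348. With HSPA8 as its largest term, the summed share of HSP70 and HSP110 genes in all listed expression was 0.903 of its vehicle's with SR2211, 1.04 with XY011 and 0.699 with ENZ.

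**Figure D2:**
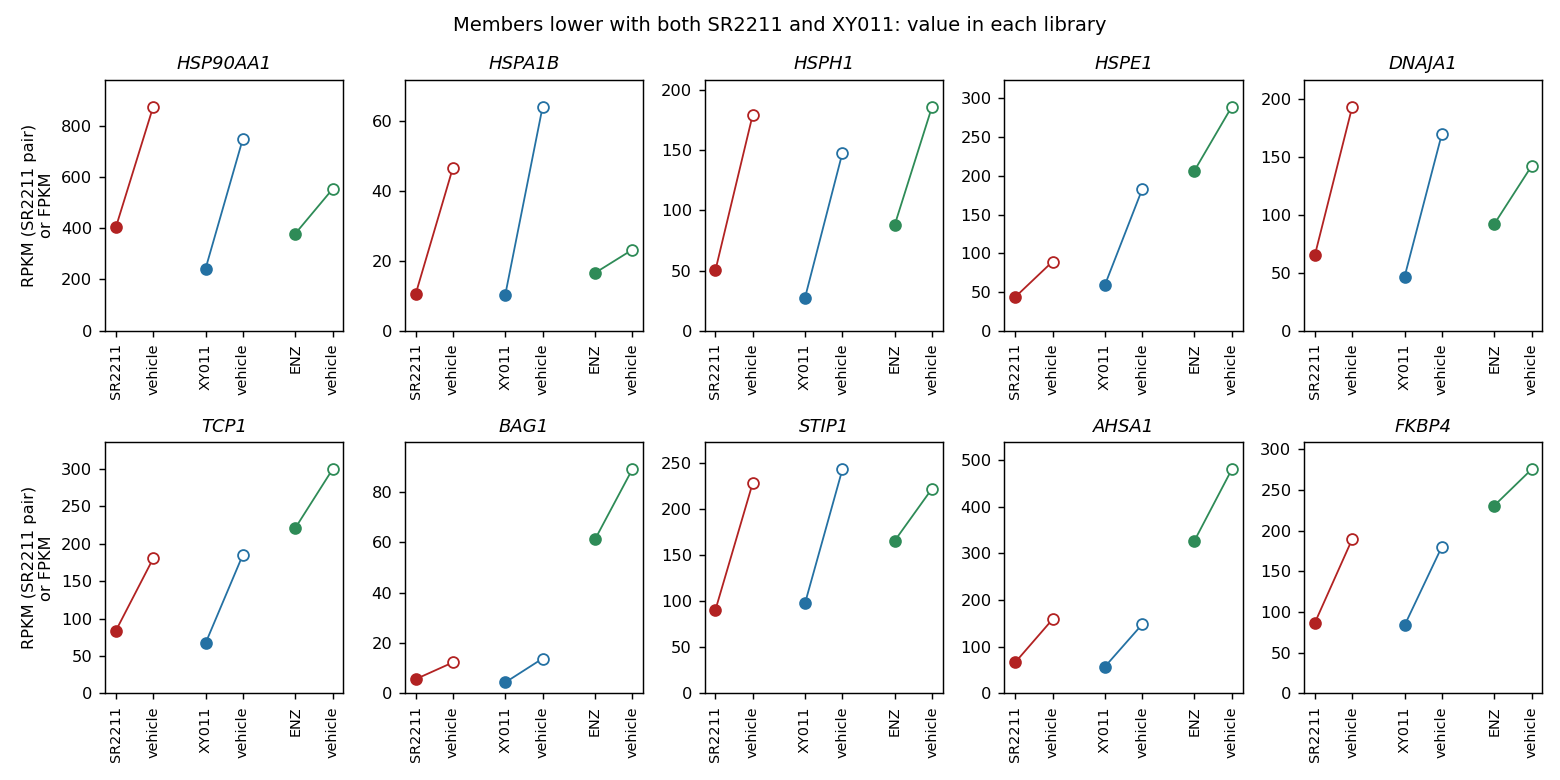
RPKM (SR2211 pair) or FPKM (other pairs) of the 10 genes called lower with both SR2211 and XY011, each in 6 libraries. Filled points are treated libraries and open points the vehicle of the same experiment, joined by a line that is lower at the treated end in every panel.

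The J-domain proteins stimulate HSP70 and choose its clients. DNAJA1 (3301), a co-chaperone of HSPA8 in receptor folding, stood at 65.4 with SR2211 against 193 in its vehicle, at 46.6 with XY011 against 170.1, and at 92.0 with ENZ against 142. Treated and vehicle libraries did not overlap, and the changes were -1.55, -1.84 and -0.62. DNAJB1 (3337), the heat-inducible form often called HSP40, stood at 31.9 with SR2211 against 64.6, just short of 2-fold, at 44.2 with XY011 against 73.97, and at 78.0 with ENZ against 76.2, changes of -0.996, -0.73 and 0.03. The constitutive DNAJA2 (10294) did not share this, at 41.7 with SR2211 against 37.7, at 52.3 with XY011 against 37.9 and at 54.7 with ENZ against 55.8. The ratio of DNAJB1 to DNAJA2 was accordingly 0.765 with SR2211 against 1.71, 0.845 with XY011 against 1.95, and 1.43 with ENZ against 1.37, where the ENZ library did not lie below its vehicle. DNAJB4, DNAJB6 and DNAJC7 were not called with any compound, with changes from -0.79 to 0.24.

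The co-chaperones of HSP90 and HSP70 had 4 of 9 genes called lower with SR2211 and 4 of 9 with XY011. Each is a share of 44.4%, beside 6.22% and 13.7% of all genes. All 9 lay below the vehicle in all 3 experiments, with medians of -0.82, -0.96 and -0.30. STIP1 (10963), which bridges HSP70 and HSP90 when a client is handed over, stood at 90.5 with SR2211 against 229 in its vehicle, at 98.1 with XY011 against 243.5, and at 166 with ENZ against 223. The vehicles differed little, at 223 to 243.5, and all treated libraries lay below them, with changes of -1.33, -1.30 and -0.42. AHSA1 (10598), the activator of the ATPase of HSP90, stood at 66.3 with SR2211 against 158, at 56.9 with XY011 against 148, and at 327 with ENZ against 479.6. The ENZ libraries lay above all others here, and the changes were -1.25, -1.36 and -0.55. FKBP4 (2288) encodes FKBP52, an immunophilin that promotes hormone binding by steroid receptors; it stood at 86.9 with SR2211 against 189.6, at 83.6 with XY011 against 180.3, and at 231 with ENZ against 275. Its changes were -1.12, -1.10 and -0.25.

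CHORDC1 (26973), an HSP90 co-chaperone that is itself induced by heat, was called lower with SR2211 alone of the compounds, at 11.7 against 28.4 in the vehicle, but at 12.2 with XY011 against 24.8 it was just short of the same size, -0.96 beside -1.21. With ENZ it stood at 18.5 against 23.4, a change of -0.32. PPID (5481) encodes the immunophilin CYP40 and was called lower with XY011, at 14.1 against 39.1, a change of -1.41. It stood at 19.7 with SR2211 against 32.4 and at 19.0 with ENZ against 20.9, changes of -0.69 and -0.14. PTGES3 (10728), the p23 protein that holds the mature complex of HSP90 and receptor, stood at 194 with SR2211 against 344, at 116.6 with XY011 against 182, and at 179 with ENZ against 189, changes of -0.82, -0.64 and -0.08. CDC37 (11140), the co-chaperone for kinases, had changes of -0.64, -0.96 and -0.42. ST13, known as HIP and a stabiliser of the complex of HSP70 and client, had the smallest change of the class with SR2211, -0.03, and -0.22 and -0.30 with XY011 and ENZ. STUB1, the ubiquitin ligase CHIP, had changes of -0.12, -0.41 and -0.16.

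BAG proteins release clients from HSP70. BAG1 (573), which also binds steroid receptors, stood at 5.64 with SR2211 against 12.3 in its vehicle, at 4.36 with XY011 against 13.8, and at 61.0 with ENZ against 88.8. The ENZ table gave BAG1 a level several times that of the other tables in treated and vehicle library alike, and the changes were -1.002, -1.47 and -0.53, the value with SR2211 just past 2-fold. BAG3 (9531), the inducible BAG protein that leads clients to autophagy, stood at 38.1 with SR2211 against 63.4, at 38.3 with XY011 against 56.4, and at 40.7 with ENZ against 40.9, changes of -0.72, -0.54 and -0.01. BAG2, an inhibitor of STUB1, had changes of 0.05, -0.58 and -0.48.

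The genes of the folding cycle of steroid receptors are HSP90AA1, HSP90AB1, HSPA1A, HSPA1B, HSPA8, DNAJA1, DNAJB1, BAG1, STIP1, ST13, AHSA1, FKBP4, PPID, PTGES3 and STUB1. Of these 15 genes, 6 of 14 tested were called lower with SR2211 and 7 of 14 with XY011, and 0 of 15 with ENZ. These shares of 42.9%, 50% and 0% stand beside 6.22%, 13.7% and 4.99% of all genes called lower. None of the 15 was called higher. Their medians were -0.91, -0.94 and -0.30, and those of the 25 other chaperone genes -0.52, -0.54 and -0.37. Among those 25, 5, 7 and 2 were called lower, or 20%, 28% and 8%. This division of the list was not tested.

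All 8 subunits of the TRiC ring had lower values in treated libraries in all 3 experiments, with medians of -0.66, -1.01 and -0.40, and the ring was the class in which SR2211 and XY011 differed most in calls. TCP1 (6950), the first subunit, was called lower with both compounds, at 83.7 with SR2211 against 180.2 in its vehicle, at 67.0 with XY011 against 185, and at 221 with ENZ against 299, changes of -1.10, -1.45 and -0.44. CCT2 (10576) stood at 80.8 with SR2211 against 162, at 75.9 with XY011 against 176 and at 160.1 with ENZ against 239. Only the XY011 change of CCT2, -1.20, passed 2-fold, but with SR2211 it was -0.99. CCT6A (908) stood at 100.4 with SR2211 against 186, at 75.5 with XY011 against 168 and at 186 with ENZ against 294, changes of -0.89, -1.15 and -0.66. CCT3 (7203) stood at 164 with SR2211 against 247, at 150.4 with XY011 against 308 and at 244 with ENZ against 304, changes of -0.59, -1.03 and -0.32. With SR2211 and XY011 the smallest changes of the ring were those of CCT4 and CCT8, and with ENZ that of CCT7. CCT4 had changes of -0.20, -0.02 and -0.22, and CCT8 of -0.35, -0.34 and -0.37. A TRiC ring holds each subunit in equal number. The changes were -0.73, -0.99 and -0.44 in CCT5 and -0.52, -0.74 and -0.19 in CCT7. The summed share of the 8 subunits was 0.621 of its vehicle's with SR2211, 0.529 with XY011 and 0.702 with ENZ. The spread among subunits, as the SD of their log2 levels per gene length, was 0.375 with SR2211 against 0.392, 0.436 with XY011 against 0.528, and 0.606 with ENZ against 0.617.

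The mitochondrial chaperones did not share a direction. HSPE1 (3336) encodes HSP10, the lid of the HSP60 chamber, and was called lower at 43.4 with SR2211 against 89.2 in its vehicle and at 58.8 with XY011 against 183. With ENZ it stood at 207 against 289, and the changes were -1.02, -1.62 and -0.48. HSPD1 (3329), which encodes HSP60 itself and is transcribed divergently from the same region, stood at 642 with SR2211 against 524, at 385 with XY011 against 386, and at 402 with ENZ against 548, changes of 0.29, 0.00 and -0.45. The ratio of HSPD1 to HSPE1 was 14.8 with SR2211 against 5.87, 6.56 with XY011 against 2.11, and 1.94 with ENZ against 1.89. The ratio also differed between the vehicles, so its level depends on the table. HSPA9 (3313), the mitochondrial HSP70 that draws proteins into the matrix, was called higher with SR2211, at 273 against 132, a change of 1.05; it stood at 212 with XY011 against 125 and at 500 with ENZ against 457, changes of 0.75 and 0.13.

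The small heat shock proteins, which hold unfolded proteins without ATP, were the 1 class with genes called higher and none called lower. HSPB8 (26353), the partner of BAG3, stood at 2.98 with SR2211 against 0.652 in its vehicle and at 2.42 with XY011 against 0.55, changes of 1.27 and 1.14, and at 0.898 with ENZ against 1.01. In both experiments it passed the minimum of 1 through the treated library alone, so only a higher value could have been tested. HSPB1 (3315), known as HSP27, stood at 654 with SR2211 against 896, at 956 with XY011 against 404, and at 921 with ENZ against 1145. Its call with XY011, 1.24, stands beside a vehicle that was lower than the other vehicles, and the XY011 library at 956 lay within the range of the 3 vehicles.

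The heat shock factors had nearly level values with SR2211 and XY011. HSF1 (3297), the main activator of the heat shock response, stood at 61.0 with SR2211 against 61.7 in its vehicle, at 40.4 with XY011 against 38.6, and at 87.0 with ENZ against 72.2, changes of -0.02, 0.06 and 0.27. HSF2 (3298), a related factor active in development and stress, stood at 7.49 with SR2211 against 8.36, at 8.93 with XY011 against 9.22 and at 3.17 with ENZ against 7.34. HSF2 with ENZ, at -1.001, was therefore the second gene called lower with ENZ, and sat at the edge of the rule. RNA levels do not measure the activity of HSF1, which is set on the protein.

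Of the list, 19 genes were taken here as induced by heat, a choice made with earlier results of these data known. Of these, 9 of 18 tested were called lower with SR2211, 8 of 18 with XY011 and 1 of 19 with ENZ. Called higher were 1, 2 and 0. The 19 had medians of -1.01, -0.85 and -0.38. The 21 others had medians of -0.45, -0.64 and -0.30, and 2, 6 and 1 of them were called lower. The shares called lower were 50%, 44.4% and 5.26% in the inducible genes and 9.52%, 28.6% and 4.76% in the others, beside 6.22%, 13.7% and 4.99% of all genes. Lower calls were more frequent with XY011 than with SR2211 in the others and over all genes, but not in the inducible genes. CCT2, one of the others, was called with XY011 at -1.20 but fell just short with SR2211 at -0.99. The split was not tested.

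Heat shock element units were searched as GAANNTTC or TTCNNGAA, which hold 2 alternating units, and as these lengthened by 2 bases and 1 further unit; the longer matches contain the shorter, and the search covers both strands. Of the 35 genes with a window, 19 (54.3%) held 2 units at some start and 7 (20%) held 3, and among all 27305 genes with a window 16.2% held 2 units and 0.608% held 3. The 7 were HSPD1, HSP90AB1, DNAJB6, DNAJA1, CHORDC1, HSPA8 and HSP90AA1. Of these 7, 3 were called lower with SR2211, 2 with XY011 and 0 with ENZ, with medians of -0.35, -0.36 and -0.35. The 28 genes with a window and without 3 units had 7 of 27, 10 of 27 and 2 of 28 called lower, with medians of -0.69, -0.74 and -0.37. Of all genes, 6.22%, 13.7% and 4.99% were called lower. The group with 3 units holds only 7 genes, and the difference between the groups was not tested. Among the genes with the arrays printed above were DNAJA1 and HSP90AA1, called lower with both SR2211 and XY011, and HSPA8 and HSP90AB1, called with neither. HSPA1B, with the lowest changes, held 2 units in its window, and HSPH1, with the next lowest, held no exact match. Only exact matches were counted, so units with a mismatch or outside the window were not seen.

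**Figure D3:**
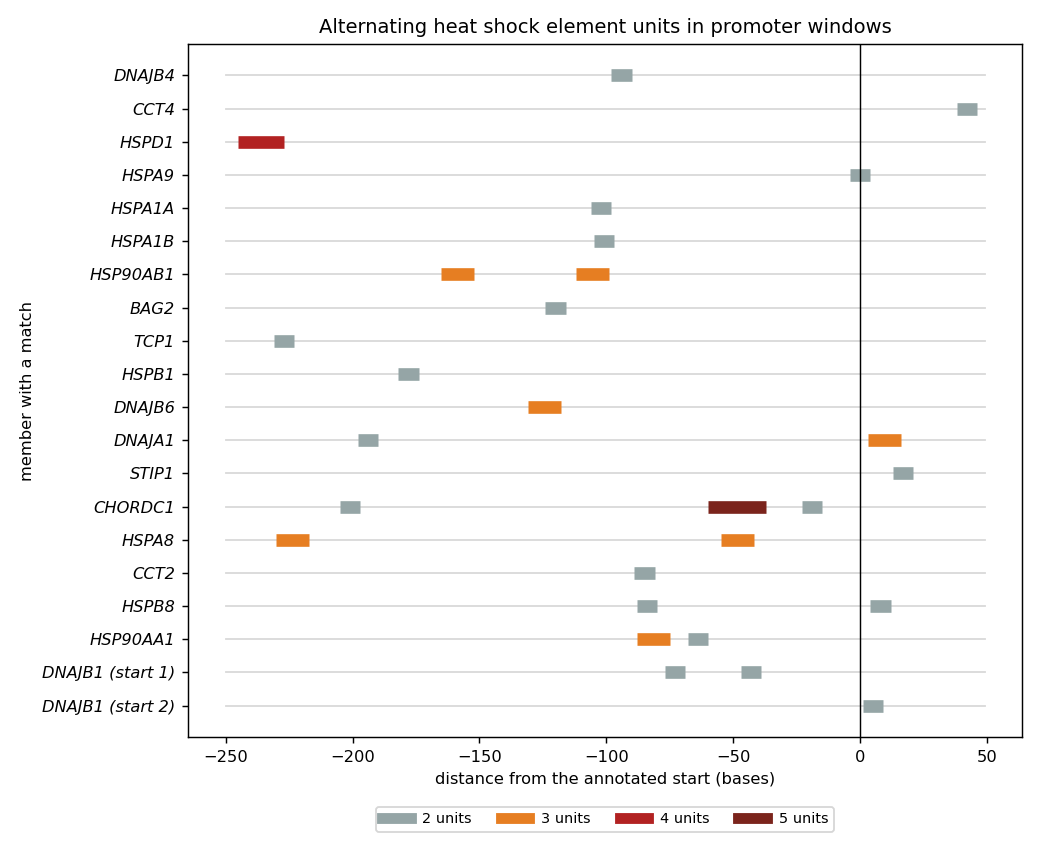
Positions of alternating GAA and TTC units in the promoter windows (grey lines) of the chaperone genes with a match, as distance in bases from the annotated start (x axis). Colour gives the number of units in an array, up to 5 in CHORDC1; DNAJB1 has a match at 2 annotated starts.

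SR2211 and XY011 were given at the same dose for the same time and in separate experiments with separate vehicles, so their changes can be set against each other. Of the 39 genes tested in both, 10 were called lower with both, 90.9% of those called with SR2211 and 71.4% of those called with XY011; of all 11727 genes tested in both, 4.66% were lower with both. With quantile scaling 6 remained lower with both, since BAG1, FKBP4, HSPE1 and TCP1 each lost a call. The 10 genes were HSP90AA1, HSPA1B, HSPH1, HSPE1, DNAJA1, TCP1, BAG1, STIP1, AHSA1 and FKBP4. HSPB8 was the 1 gene called higher with both, against 3.27% of all genes. In 9 of the 10, both changes were larger than the difference between the SR2211 and XY011 vehicles, which was at most 0.45 on the log2 scale in those 9. In HSPE1 the vehicles differed by 1.03, as much as HSPE1 differed between SR2211 and its own vehicle. Across the 39 genes the changes with the 2 compounds had a Pearson r of 0.86 and a Spearman rho of 0.85, beside 0.77 and 0.75 across all genes, which are not independent replicates.

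The difference between the changes, SR2211 minus XY011, had a median of 0.19 over the 39 genes and 0.06 over all genes, and its median size was 0.26 beside 0.31. The change was larger in size with XY011 in 24 of the 39. In 0 genes was the difference 1 or more, against 4.51% of all genes, and in 2 it was -1 or less, against 2.02%. These were HSPB1, at -1.69, and DNAJB4, at -1.0005. DNAJB4, a J-domain protein, stood at 3.54 with SR2211 against 6.67 in its vehicle, at 2.21 with XY011 against 1.71 and at 6.92 with ENZ against 11.9. In both genes the vehicles themselves differed by more than 2-fold. Each difference comes from 4 single libraries and has no error, so the data do not show that the compounds act alike on the other 37 genes. ENZ was given at 20 µM, 4 times the dose of the others, and its values are set beside theirs without a test of the difference.

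**Figure D4:**
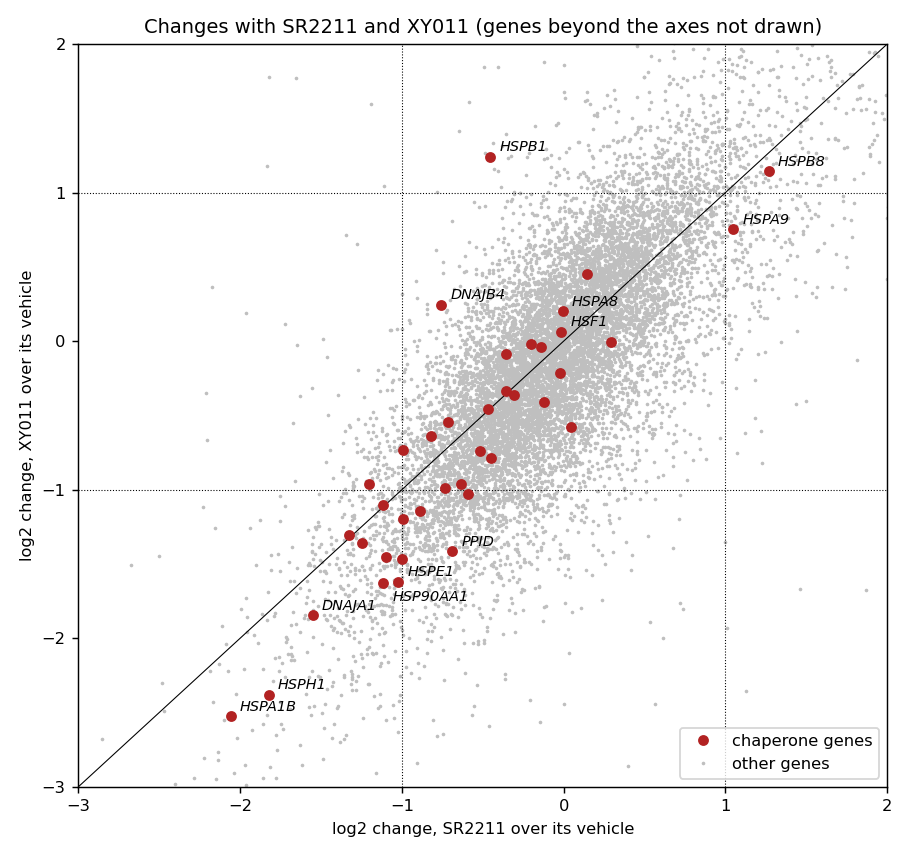
Log2 change with SR2211 (x axis) against log2 change with XY011 (y axis) for the chaperone genes and for other genes tested in both experiments. Dotted lines mark a size of 1 and the solid line equal changes. HSPB1 stands far above the line, and 10 chaperone genes lie in the corner lower with both compounds.

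The vehicles give the only measure of how far libraries of different experiments differ. Between the XY011 and SR2211 vehicles, 3 of 38 chaperone genes differed by 2-fold or more, against 11.4% of all genes. The ENZ vehicle differed 2-fold or more from the SR2211 vehicle in 6 of 39 genes and from the XY011 vehicle in 9 of 39, against 33.5% and 38.8% of all genes. The ENZ vehicle was offset from the other tables, by a median over all genes of 0.55 and 0.61 on the log2 scale, and with the vehicles centred these counts were 13 and 14 of the chaperone genes, so nothing is read from the shares as deposited. STUB1, BAG1 and AHSA1 were among those far higher in the ENZ vehicle, so levels of these genes are comparable within a table only. In 10 of the 39 genes all 3 treated libraries lay below all 3 vehicles, against 7.27% of all genes, and in 0 all lay above, against 5.44%. Beside HSP90AA1, HSPA1B, HSPH1, DNAJA1 and STIP1 these were BAG3, CCT2, CCT3, CHORDC1 and PPID. Both counts and shares use levels as deposited, so the offset of the ENZ table enters them. BAG3 was among the 10 with a change of only -0.01 with ENZ.

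As parts of the summed expression of all listed genes, the 40 genes made up 16560.0 ppm with SR2211 against 22056 in its vehicle, 14909 with XY011 against 18257, and 4410 with ENZ against 5944. The ratios were 0.751, 0.817 and 0.742, so that the summed share was lower in each treated library. The summed share of the chaperones of the endoplasmic reticulum described below was also lower, with ratios of 0.724, 0.726 and 0.788. The co-chaperone share was 0.544 of its vehicle's with SR2211, 0.523 with XY011 and 0.749 with ENZ, and the J-domain share 0.538, 0.565 and 0.782. The mitochondrial share was 1.28, 0.930 and 0.794, and the small heat shock share 0.729, 2.33 and 0.745, where HSPB1 makes up most of the sum.

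For 30 of the 40 genes, whole reads could be recovered from the SR2211 pair, between 11 and 5414 reads a gene in the vehicle. HSPH1 had 1503 reads with SR2211 against 5414, a ratio of 0.279 with an exact 95% interval of 0.263 to 0.295. HSPA1B had 218 against 979, a ratio of 0.224 (0.192 to 0.259). At the low end HSPB8 had 50 against 11, a ratio of 4.57 (2.35 to 9.73). BAG1 had 179 against 392, a ratio of 0.459 with an interval of 0.382 to 0.549, so counting error alone spans the 2-fold line. The intervals cover counting error only, and not the difference between cultures.

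Chaperone genes outside the 40 were read in the same way, beside the same background of 6.22%, 13.7% and 4.99% of all genes called lower. Of 22 further co-chaperones of HSP90 and HSP70, 2 were called lower with SR2211, 2 with XY011 and 1 with ENZ, and 1 was called higher with XY011. These shares of 9.09%, 9.09% and 4.55% lower are near or under the background. FKBP5, the immunophilin FKBP51 that competes with FKBP4 for HSP90 and is a well known steroid receptor target, stood at 11.9 with SR2211 against 72.0 in its vehicle, at 13.5 with XY011 against 187, and at 23.9 with ENZ against 134. Its changes of -2.50, -3.70 and -2.44 were larger than those of any of the 40 genes, and it was called lower with all 3 compounds. RUVBL1, an ATPase of the R2TP assembly complex, had changes of -1.19, -1.63 and -0.23. Of the further HSP70, J-domain and small heat shock genes, 2 of 20, 2 of 21 and 2 of 22 were called lower, and 2, 1 and 0 higher, shares of 10%, 9.52% and 9.09% lower. They included HSPB11 (-1.14, -1.78 and -0.72) and DNAJC9 (-1.09, -1.24 and -0.56), while HSPA13 was called higher with SR2211 and XY011 (1.14, 1.10 and -0.36). Of 10 prefoldin and TRiC helper genes, 0 of 9, 1 of 10 and 0 of 10 were called lower and none higher, shares of 0%, 10% and 0%. Of 16 chaperones of the endoplasmic reticulum, 1 of 15, 2 of 16 and 0 of 16 were called lower, or 6.67%, 12.5% and 0%, and 0, 1 and 0 higher. The medians of these chaperones were -0.48, -0.46 and -0.26, and 12 of 15, 13 of 16 and 15 of 16 lay below the vehicle. The one called with both SR2211 and XY011 was SDF2L1 (-1.12, -1.44 and -0.62).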

How the data were processed

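RNA of 6 C4-2B libraries was sequenced from poly(A)-selected TruSeq libraries, per the labels' protocols. BWA, Bowtie, Cufflinks, Cuffdiff, GRCh37 and hg19 are listed in the submitters' processing notes, with no role for each; strand use is not given in the sources used here. The authors deposited RPKM for the SR2211 pair and FPKM for the XY011 and ENZ pairs, in tables normalized separately. Groups follow the sample titles. The extraction text of the ENZ libraries names SR2211, and that of the SR2211 and XY011 libraries names another code in place of XY011. Genes without reads carry a stand-in of 0.01 (SR2211), 0.001 (XY011) or 0 (ENZ).

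From these values, log2((treated + 1)/(vehicle + 1)) was computed with Python 3.11.15, pandas 2.3.3 and numpy 2.4.6. Genes at 1 or more in either library were used, and a size of 1 was called. Simulated data with changes well past the rule and little noise were used to check the code. They do not measure the error of the calls. Tables were joined by Entrez ID (SR2211, XY011) and symbol (ENZ), and ENZ lines sharing a name were summed. In the SR2211 pair, values of microRNA genes gave whole reads within 0.01 in 34 of 35 genes with SR2211 and 26 of 26 in its vehicle; a gene's reads are the smallest number that gives a whole gene length, so true reads may be a multiple. Promoter windows (RefSeq, GRCh38.p14) were joined by symbol only. Exact intervals used scipy 1.17.1. No count test was run, since 1 library a group leaves no residual spread.

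The genes and lists were chosen with earlier results of these data known. All 40 are named; of the further lists, those called the same way with both SR2211 and XY011, or with all 3 compounds, are named. Other scalings, pseudocounts, minimums and call sizes were tried.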

Additional observations from a re-analysis of the deposited data

Results flagged for a closer look

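In 2 genes the changes with SR2211 and XY011, at the same dose and time, had opposite signs and lay 1 or more apart; neither difference was tested, because each change comes from 1 library a group. In HSPB1 the SR2211 change minus the XY011 change was -1.6937, with 654 RPKM for SR2211 against 896 in its vehicle and 956 FPKM for XY011 against 404. The vehicles differed by -1.15 on the log2 scale (XY011 over SR2211). In DNAJB4 the difference was -1.0005, with 3.54 RPKM for SR2211 against 6.67 in its vehicle and 2.21 FPKM for XY011 against 1.71, and the vehicles differed by -1.50. The part of the vehicle levels in these differences was not tested.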

How the results depend on the processing

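No paired analysis was possible because each group has 1 library and the labels give no replicate numbers. Of 31 called changes, 12 fell short of 2-fold under at least 1 alternative and 0 reversed. Counts that moved by over 1.5 times were as follows. With a pseudocount of 5, and with a minimum of 5 in both libraries, genes higher with SR2211, higher with XY011, lower with ENZ, and differing by -1 or less between SR2211 and XY011 numbered 1 each, and genes higher with both 0; that pseudocount left 1 gene between the XY011 and SR2211 vehicles. With quantile scaling, 7 were lower with SR2211, 6 with both and 0 with ENZ, and centring or rescaling each library to 1 sum left 1 with ENZ. At 1.5-fold, 21 were lower with SR2211, 5 with ENZ and 19 with both, 2 higher with both, 3 with SR2211 above XY011, and 6, 18 and 18 differed between vehicles (XY011 and SR2211, ENZ and SR2211, ENZ and XY011). Centred, scaled to quantiles or rescaled, the ENZ vehicle differed from the SR2211 vehicle in 13, 14 and 14 genes and from the XY011 vehicle in 14 each time. The log2 ratio of the summed share with ENZ, -0.43, was -0.28 over genes in all 3 tables and -0.31 without the 20 highest genes. Over all genes, 1026 higher and 1755 lower with XY011 became 1343 and 1304 when centred and 1312 and 1342 with quantile scaling, and 726 and 970 with ENZ became 353 and 773 when rescaled. Leaving out small RNA genes was an alternative added after seeing the data and moved no count of chaperone genes by over 1.5 times. The SR2211 pair has about 8160000 and 8200000 mapped reads (SR2211 and its vehicle); depth elsewhere is unknown.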
